A study of Sus scrofa with 9 samples.

Results

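The genes described here make the building blocks of DNA and copy it. They are TYMS, RRM1 and RRM2 of deoxynucleotide synthesis, the sliding clamp gene PCNA, and the genes MCM2 to MCM7 of the replicative helicase. Probe sets of a porcine Affymetrix array were taken where the platform annotation gave exactly 1 gene symbol and that symbol was one of these 10 genes. This found 14 probe sets for 8 of the 10 genes, among 6765 named genes in all. MCM6 and MCM7 had no probe set of that single symbol in the annotation used and are not analysed here. TYMS had 2 probe sets, MCM2 and MCM5 had 3 each, MCM4 had 2, and PCNA, RRM1, RRM2 and MCM3 had 1 each. Testing required a signal over the array's own 40th percentile in 3 or more of 9 arrays. This kept 12 of the 14, and the other 2, of MCM4 and MCM5, are given by their signals.

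A cell has to copy its genome once in each division cycle, and these genes are switched on together, largely by E2F transcription factors, as a cell enters S phase. Thymidylate synthase, the product of TYMS, makes the thymine nucleotide from its uracil precursor, and RRM1 and RRM2 are the large and the small subunit of ribonucleotide reductase, which turns ribonucleotides into deoxyribonucleotides. PCNA encodes the ring that holds DNA polymerases on the template, and the MCM proteins form the ring-shaped complex that is loaded at origins and unwinds the double strand. Resting endothelium divides rarely, and endothelial cells in culture or regrowing over a denuded vessel wall divide more. Cells that have become senescent have left the cycle for good and are known for low levels of such genes.

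RNA of pig coronary arterial endothelial cells was measured on 9 arrays, 1 per sample and 3 per group. The passage 1 group was the control, taken from primary culture at the first passage. The passage 4 group came from the same kind of culture after weekly serial passaging, and the labels call these cells senescent. The regenerated group had regrown in the animal after the endothelium was removed, and was then scraped from the vessel and cultured with no further passage. All groups were collected under basal conditions with no added agent named in the labels, and no strain or age of the animals is given there. The cRNA was labelled with biotin, starting from 1 ug of RNA for passage 1 and passage 4 and from 0.5 to 1 ug for the regenerated group, so RNA input and the regenerated group cannot be told apart. Whether a group's arrays stand for separate animals or separate cultures is not said in the labels, so the p-values cover the spread among these arrays alone, and that spread may be technical.

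Signals were deposited on a linear scale as MAS5 values, already scaled so that the trimmed mean was 500.1 in each array, and array medians ran from 85.9 to 108. The number of arrays limits the precision. Of 14 endothelial markers 12 had a probe set, and their summed signal was 24337 to 29276 in passage 1, 24053 to 24799 in passage 4 and 22790 to 33249 in regenerated arrays. The summed probe sets of VWF and KDR lay below the filter, though 11 of the 12 genes had a tested probe set. PECAM1 and CDH5 had the largest signals, so the sum says little of single dimmer markers, which did not all stay even. CLDN5 read 512 to 731 in passage 1, 222 to 538 at passage 4 and 158 to 214 in regenerated cells. ENG read 552 to 1998, 1231 to 1405 and 3168 to 6169 in the same order. From passage 1 to passage 4, TIE1 (973 to 1501, then 596 to 836) and NOS3 (1175 to 1857, then 684 to 1013) were lower without overlap. MCAM was higher without overlap (71.4 to 124, then 140 to 538), and the other summed markers overlapped between these groups. Bacterial spike-in transcripts (dap and thr) showed 2 kinds of array by the signal of their 5′ probe sets relative to their 3′ probe sets. On the log2 scale this difference averaged -2.09 to -1.77 in the 3 passage 4 arrays and passage 1 array 1. It was -5.19 to -4.25 in passage 1 arrays 2 and 3 and the 3 regenerated arrays. These kinds are read from the spike-in signals alone, and no label states them. Transcripts of the cells gave a like split for actin, at -0.67 to -0.35 in the former 4 arrays and -2.78 to -1.37 in the other 5, and for EF1A, at 0.046 to 0.26 and -2.25 to -0.42. For GAPDH the arrays overlapped, at -0.75 to -0.37 in passage 4, -0.71 to -0.62 in passage 1 and -0.90 to -0.66 in regenerated cells. The part of these 5′ to 3′ differences in the results was not tested, other than by the fits with the spike-in kind as a block.

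The 8 genes had their highest mean signal at passage 4, next at passage 1 and lowest in regenerated cells, each by its brightest probe set. Passage 4 exceeded passage 1 past the threshold for TYMS, RRM1 and a dimmer probe set of MCM2. Passage 4 exceeded regenerated cells past the threshold for TYMS, RRM1, MCM3, MCM4, MCM5 and the same MCM2 probe set. Passage 1 and regenerated cells, the neighbours at the low end of this order, did not differ past the threshold for any member. Differences are given as log2(signal + 16) of the first group minus the second, a scale that understates the change of dim probe sets. They were tested with limma over 15299 probe sets with Benjamini-Hochberg adjustment, with the threshold for a call at an adjusted p of 0.05.

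**Figure D1:**
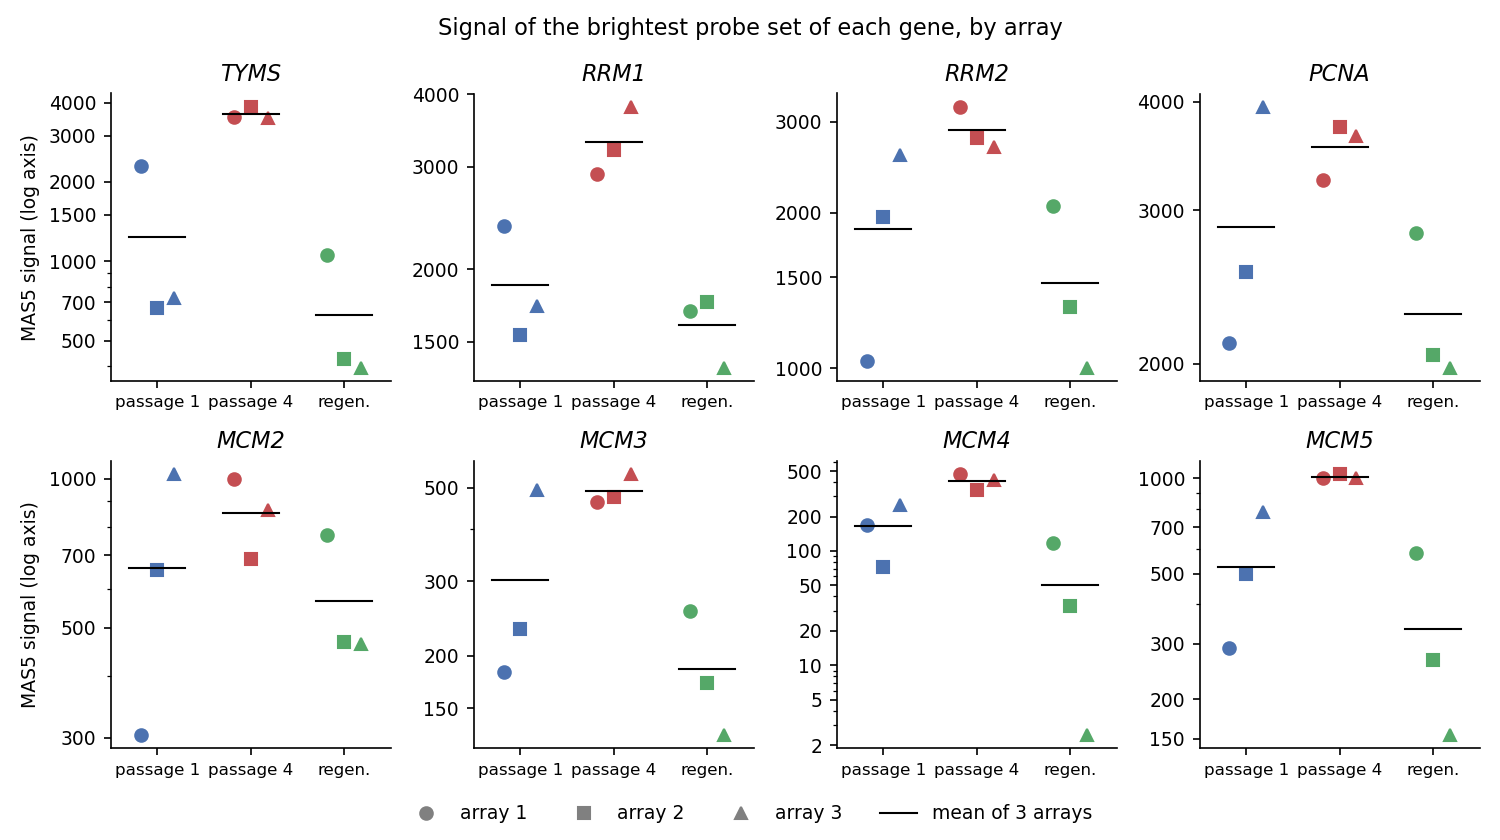
MAS5 signal (log axis, with its own range in each panel) of the brightest probe set of the 8 genes in the 9 arrays. Points are single arrays, with the marker shape giving the array number, and bars are group means. The 3 passage 4 arrays of MCM4 lie close together, at 339 to 471, while its regenerated arrays ran from 2.45 to 117.

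Thymidylate synthase was measured by a bright and a dimmer probe set. The bright TYMS probe set (Ssc.6934.3.S1_at) read 2303, 665 and 727 in passage 1 arrays 1, 2 and 3, then 3516, 3865 and 3504 in the passage 4 arrays, and 1060, 426 and 395 in the regenerated arrays. The 3 passage 4 arrays stood above all others, and passage 1 array 1 stood apart from the other 2 of its group by 1.71 on the log2 scale, more than for 98.8% of tested probe sets. Its group means were 3628 ± 205 for passage 4, 1232 ± 928 for passage 1 and 627 ± 375 for regenerated cells (SD, n = 3). TYMS rose at passage 4 by 1.79 against passage 1 (SE 0.45, limma adjusted p = 0.0443) and was higher than in regenerated cells by 2.65 (SE 0.45, adjusted p = 0.00504). Regenerated cells were at -0.86 against passage 1 and did not pass (adjusted p = 0.292). In RNA of a whole culture, fewer cells that copy DNA and less of the transcript per cell cannot be told apart.

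The dimmer TYMS probe set (Ssc.6934.1.A1_at) did not share the high value of passage 1 array 1. It read 90.3, 74.2 and 76.8 in passage 1, 313, 240 and 269 at passage 4, and 97.4, 51.4 and 64.9 in regenerated cells. Passage 1 array 1 was again the highest of its group, here by 0.22 on the log2 scale, and passage 4 again lay above all other arrays. The passage 4 rise over passage 1 was 1.58 (SE 0.26, limma adjusted p = 0.0072) and that over regenerated cells 1.76 (SE 0.26, adjusted p = 0.00281). Without passage 1 array 1 the difference of the bright probe set from passage 1 was 2.36 and passed (limma adjusted p = 0.00278). Its call was lost without passage 1 array 2 or 3, without any of the 3 passage 4 arrays, and without regenerated array 2 or 3, with log2 differences of 1.47 to 1.81 and adjusted p from 0.0534 to 0.173. The call of the dimmer probe set stayed with each array left out.

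RRM1, the large subunit of ribonucleotide reductase, holds the catalytic site. Its probe set (Ssc.6710.1.A1_at) read 2377, 1538 and 1725 in passage 1, 2919, 3208 and 3812 at passage 4, and 1692, 1752 and 1353 in regenerated cells. The passage 4 arrays lay above the other 6, and passage 1 array 1 was the highest of its group, as for TYMS. RRM1 was 0.83 higher at passage 4 than at passage 1 (SE 0.20, limma adjusted p = 0.036) and 1.04 higher than in regenerated cells (SE 0.20, adjusted p = 0.00728). Regenerated cells were at -0.22 against passage 1 (adjusted p = 0.561). The call against passage 1 was lost without passage 1 array 2 or 3 or any passage 4 array, with log2 differences of 0.70 to 0.91 and adjusted p up to 0.152.

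RRM2 encodes the small subunit, which carries the radical that starts the reaction and whose level follows the cell cycle. Its probe set (Ssc.7111.1.A1_at) read 1034, 1965 and 2590 in passage 1, 3213, 2790 and 2680 at passage 4, and 2063, 1315 and 1004 in regenerated cells. Here passage 1 array 1 was the lowest of its group, the reverse of its place for the large subunit, and passage 4 still lay above all other arrays. The difference of passage 4 from passage 1 was 0.72 (SE 0.32, limma adjusted p = 0.239), that from regenerated cells 1.04 (SE 0.32, adjusted p = 0.0553), and that of regenerated from passage 1 -0.31 (adjusted p = 0.612). None of these passed, and the value against regenerated cells passed without passage 1 array 1 or 3 or without regenerated array 1, with adjusted p from 0.0149 to 0.0373. RRM2B, a p53-induced relative of RRM2, ran from 75.8 to 194 in passage 1 and from 84.5 to 378 at passage 4, and did not pass (log2 0.51, adjusted p = 0.621).

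PCNA showed the smallest difference between passage 4 and passage 1 among the brightest probe sets of the 8 genes. Its probe set (Ssc.9387.1.A1_at) read 2112, 2552 and 3948 in passage 1, 3249, 3737 and 3650 at passage 4, and 2829, 2045 and 1980 in regenerated cells. Passage 1 array 3 was the highest of the 9 arrays, so passage 1 and passage 4 overlapped, while passage 4 and regenerated arrays did not. Passage 4 was at 0.35 against passage 1 (95% confidence interval -0.14 to 0.84, limma adjusted p = 0.448) and at 0.65 against regenerated cells (0.15 to 1.14, adjusted p = 0.0828). Regenerated cells were at -0.30 against passage 1 (adjusted p = 0.482). The value against regenerated cells passed without passage 1 array 1 or 3 or regenerated array 1, with adjusted p from 0.0348 to 0.0491.

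MCM2 was measured by 3 probe sets that did not agree. The brightest (Ssc.1408.2.S1_at) read 303, 654 and 1022 in passage 1, 1000, 687 and 866 at passage 4, and 769, 467 and 463 in regenerated cells. All 3 groups overlapped there, and passage 4 was at 0.50 against passage 1 (limma adjusted p = 0.524) and at 0.60 against regenerated cells (adjusted p = 0.319). Without passage 1 array 1 the former was 0.04.

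The second MCM2 probe set (Ssc.21350.1.S1_at) read 41.8, 41.2 and 89.3 in passage 1, 281, 171 and 183 at passage 4, and 48.7, 53.6 and 40.6 in regenerated cells. Passage 4 lay above all other arrays there, by 1.66 against passage 1 (SE 0.31, limma adjusted p = 0.0131) and 1.81 against regenerated cells (SE 0.31, adjusted p = 0.00521). The former call was lost without passage 1 array 2 (1.51, adjusted p = 0.0593) or passage 4 array 1 (1.46, adjusted p = 0.0622). This probe set was above the 40th percentile in 7 arrays, the 3 passage 4 arrays among them. The third (Ssc.1408.1.A1_at) read 19.3, 36.2 and 75.7 in passage 1, 72.5, 43.5 and 20.6 at passage 4, and 51.1, 30.0 and 24.4 in regenerated cells. It passed the filter with exactly 3 arrays, its groups overlapped, and its differences of 0.06, -0.15 and 0.21 did not pass (adjusted p from 0.791 to 0.955).

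MCM3, another subunit of the helicase ring, read 182, 231 and 493 in passage 1, 463, 475 and 539 at passage 4, and 255, 172 and 129 in regenerated cells (Ssc.29428.1.A1_at). Passage 1 array 3 reached into the passage 4 range, and all regenerated arrays lay below it. MCM3 was higher at passage 4 than in regenerated cells by 1.38 (SE 0.34, limma adjusted p = 0.0226). Passage 4 against passage 1 was at 0.80 (adjusted p = 0.223) and regenerated against passage 1 at -0.58 (adjusted p = 0.353), and neither passed.

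MCM4 had the largest difference between passage 4 and regenerated cells among the tested member probe sets. It read 168, 71.7 and 254 in passage 1, 471, 339 and 418 at passage 4, and 117, 32.7 and 2.45 in regenerated cells (Ssc.4612.2.S1_at). Passage 4 lay above the other 6 arrays, and regenerated arrays 2 and 3 lay below the 40th percentile of their array, so their signals were dim. MCM4 was higher at passage 4 than in regenerated cells by 3.10 (SE 0.60, limma adjusted p = 0.00803), and by 2.39 without regenerated array 3. Against passage 1 it was at 1.37 at passage 4 (adjusted p = 0.233) and at -1.73 in regenerated cells (adjusted p = 0.116), and the latter passed without regenerated array 1 (-2.45, adjusted p = 0.017). The other MCM4 probe set (Ssc.4612.3.S1_at) lay below the filter, with signals of 8.24 to 11.3 in passage 1, 15.4 to 52.5 at passage 4 and 13.0 to 31.9 in regenerated cells.

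MCM5 was measured by 3 probe sets, of which the brightest (Ssc.16649.1.S1_a_at) read 292, 497 and 780 in passage 1, 1003, 1033 and 1003 at passage 4, and 582, 267 and 154 in regenerated cells. The passage 4 arrays were nearly equal and above the other 6, and regenerated array 1 was higher than the other 2 of its group. MCM5 was higher at passage 4 than in regenerated cells by 1.75 (SE 0.42, limma adjusted p = 0.02). It was at 1.04 against passage 1 (adjusted p = 0.197) and regenerated cells at -0.71 (adjusted p = 0.358). The calls of MCM3 and MCM5 against regenerated cells were both lost without any of the 3 passage 4 arrays and without regenerated array 2 or 3, with log2 differences of 1.17 to 1.42 for MCM3 and 1.32 to 1.75 for MCM5 and adjusted p from 0.0586 to 0.096.

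The other MCM5 probe sets did not follow the brightest in every group. Ssc.11264.1.A1_at read 135, 157 and 251 in passage 1, 231, 302 and 350 at passage 4, and 209, 296 and 137 in regenerated cells, with overlap of all groups, and differences of 0.68, 0.21 and 0.47 that did not pass (limma adjusted p from 0.259 to 0.744). Ssc.16649.2.S1_at lay below the filter, reading 3.70, 1.28 and 1.19 in passage 1, 40.7, 115 and 111 at passage 4, and 1.43, 1.53 and 0.91 in regenerated cells. Its 3 passage 4 arrays were far above the other 6, which were near 0. In a fit with no filter it passed against passage 1 (limma adjusted p = 0.00308) and against regenerated cells (adjusted p = 0.00211).

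**Figure D2:**
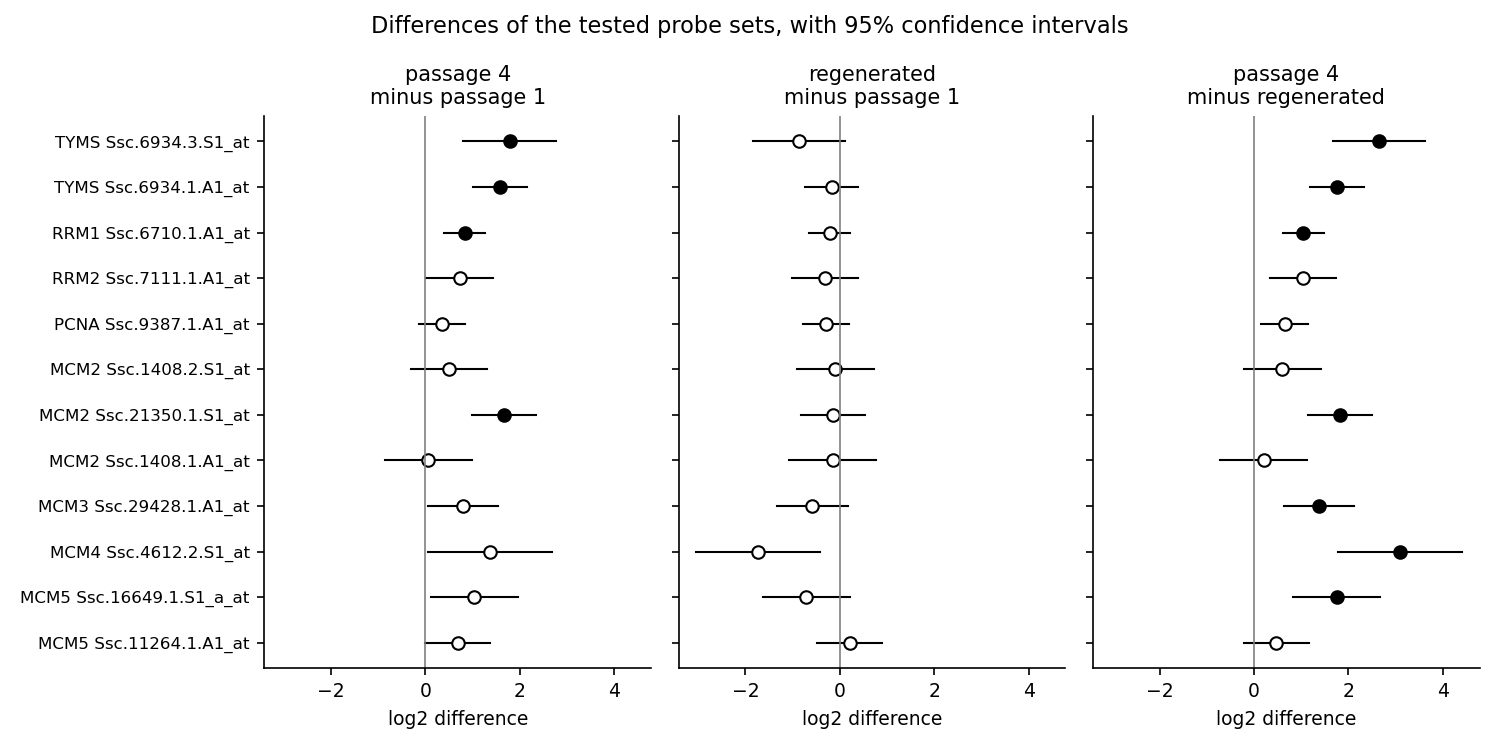
Log2 differences of the 12 tested member probe sets in the 3 comparisons, with 95% confidence intervals from limma. Filled points passed an adjusted p of 0.05 and open points did not. Passage 4 lies to the right of 0 for the 12 probe sets against both other groups, with 4 filled points against passage 1 and 7 against regenerated cells, and the middle panel has none.

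Against passage 1, 4 of the 12 tested member probe sets passed at passage 4, all upward. Of the 15299 tested probe sets 415 passed upward, or 2.71%, and 318 passed downward, or 2.08%. With each array centred on its median this split became 299 upward and 455 downward, with the median of all tested probe sets at -0.12, and 3 member probe sets passed. By the brightest probe set of each gene the 8 genes had a median of 0.81 against 0.04 for all tested probe sets, and for 5 of them (TYMS, RRM1, RRM2, MCM4 and MCM5) the passage 4 arrays lay above all passage 1 arrays, which was so for 15.3% of tested probe sets. With each array left out in turn the number of member probe sets that passed ran from 1, without passage 1 array 2 or passage 4 array 1, to 4. It was 2 without passage 1 array 3 or passage 4 array 2 or 3.

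Regenerated against passage 1 gave 0 member calls in limma, where 2.98% of tested probe sets passed upward and 2.51% downward. No member reached an adjusted p below 0.116, and by unadjusted p MCM4 alone was under 0.05. The brightest probe sets of the 8 genes were all below 0, with a median of -0.45, and in none did the groups separate, which happened upward in 12.3% and downward in 10.8% of tested probe sets. The comparison shares its passage 1 arrays with the former one.

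Passage 4 against regenerated cells gave 7 member calls of 12, all upward, where 8.14% of tested probe sets passed upward (1246) and 4.35% downward (666). Centred on array medians, 1025 passed upward and 934 downward, and 7 member probe sets passed. The median over the 8 genes was 1.21 against 0.01 for all tested probe sets. In 7 of the 8 genes, all but MCM2, the passage 4 arrays lay above all regenerated arrays, which was so for 20.1% of tested probe sets. This comparison uses arrays of both others, and the control cancels in it.

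The arrays of a group did not vary alike for all members. In passage 1, array 3 was the highest and array 1 the lowest for RRM2, PCNA, MCM2, MCM3 and MCM5. Array 1 lay below the mean of the other 2 by 1.11 for RRM2, 0.58 for PCNA, 1.38 for MCM2, 0.84 for MCM3 and 1.06 for MCM5 on the log2 scale. For TYMS and RRM1 array 1 was the highest instead, above the mean of the other 2 by 1.71 and 0.54. Array 2 was the lowest for these and for MCM4. The highest over lowest signal of a group was at most 1.45 at passage 4 among the brightest probe sets, 1.54 to 3.54 in passage 1 and 1.30 (RRM1) to 47.8 (MCM4) in regenerated cells. In regenerated cells array 1 was the highest for all 8 genes but RRM1, by 0.49 for PCNA to 2.15 for MCM4 over the mean of the other 2.

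**Figure D3:**
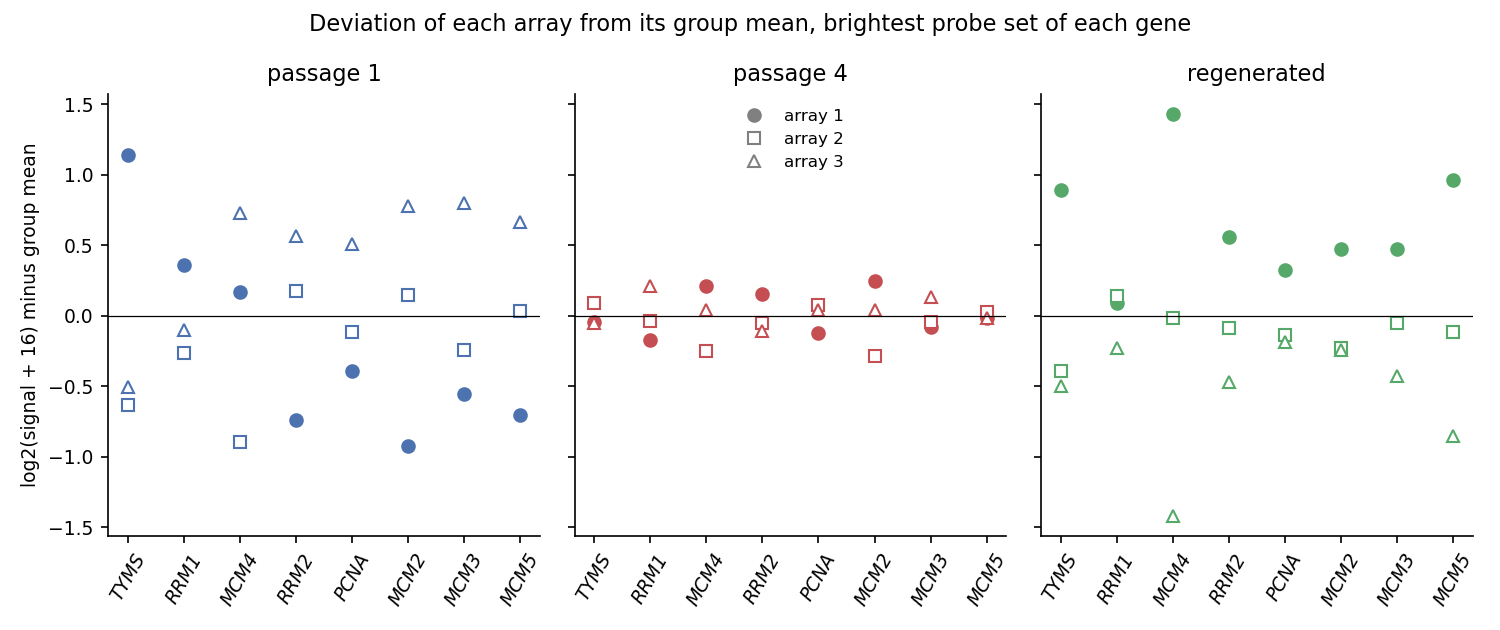
Deviation of each array from the mean of its group on the log2(signal + 16) scale, for the brightest probe set of the 8 genes, with filled circles for array 1. In passage 1 the filled circle is at the top for TYMS and RRM1 and at the bottom for RRM2, PCNA, MCM2, MCM3 and MCM5, and passage 4 arrays stay within 0.29 of their mean.

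The place of passage 1 array 1 for TYMS and RRM1 went with the spike-in kind of the arrays. The bright TYMS probe set was at 2303 to 3865 in the 4 arrays with the smaller spike-in difference and at 395 to 1060 in the other 5. RRM1 was at 2377 to 3812 in those 4 arrays and at 1353 to 1752 in the other 5. The dim MCM5 probe set Ssc.16649.2.S1_at, below the filter, also had no overlap, at 3.70 to 115 and 0.91 to 1.53. Its 3.70 was that of passage 1 array 1 and was near 0, as in the other 5 arrays, so its split there is not informative. Such a split with no overlap was found for 6.77% of the tested probe sets in this direction and for 3.71% in the other, and no other member probe set had it. It was looked for after the values were seen. Passage 4 and regenerated arrays were all of opposite kinds, so for that comparison the kind and the group cannot be told apart without the passage 1 arrays.

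With the spike-in kind as a block, passage 4 is compared with passage 1 array 1 alone and regenerated cells with passage 1 arrays 2 and 3. Within the kind the difference of passage 4 from passage 1 was 0.65 for TYMS (limma adjusted p = 0.582), 1.44 for its dimmer probe set (adjusted p = 0.0944), and 0.47 for RRM1 (adjusted p = 0.432). It was larger than over all arrays for RRM2 at 1.47, PCNA at 0.74, MCM2 at 1.42, MCM3 at 1.35 and MCM5 at 1.74, and MCM4 was at 1.20. All 12 tested member probe sets were above 0 and none passed, with 1 array of passage 1 to compare with. The median over the 8 genes was 1.28, and 150 of the 15299 probe sets passed there in place of 733.

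**Figure D4:**
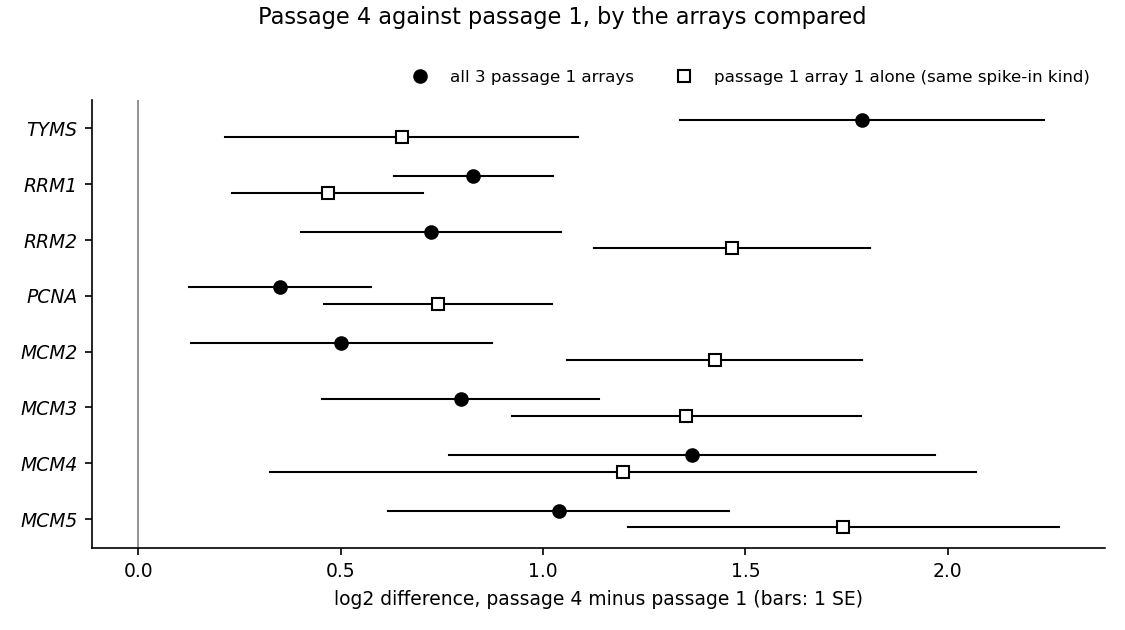
Log2 difference of passage 4 from passage 1 for the brightest probe set of the 8 genes, with bars of 1 SE from limma. Filled circles use all 3 passage 1 arrays and open squares passage 1 array 1 alone, the passage 1 array of the same spike-in kind. The squares lie to the left for TYMS, at 0.65 against 1.79, for RRM1 and, by less, for MCM4. They lie to the right for RRM2, PCNA, MCM2, MCM3 and MCM5.

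Within the kind, regenerated cells were at -0.29 for TYMS, -0.69 for RRM2, -0.49 for PCNA, -0.56 for MCM2, -0.86 for MCM3, -1.64 for MCM4 and -1.06 for MCM5 against passage 1 arrays 2 and 3, and RRM1 was at -0.04. None of these passed. The kind could be estimated only from passage 1 array 1 against passage 1 arrays 2 and 3. In the comparison of passage 4 with regenerated cells the block therefore shifts each difference by the place of that 1 array. A larger value there restates that passage 1 array 1 was low for the gene, and is not a separate measure of the difference. For passage 4 against regenerated cells the block left 35 of 15299 probe sets past the threshold in place of 1912, and 0 of the members. TYMS was there at 0.94 (limma adjusted p = 0.392) and RRM1 at 0.50 (adjusted p = 0.401), while RRM2 was at 2.15, MCM3 at 2.21, MCM4 at 2.84 and MCM5 at 2.80, and the median over the 8 genes was 2.07.

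Other genes of the pathway were counted by lists, each gene by its brightest tested probe set. To set beside the counts, 2.71% of all tested probe sets passed upward and 2.08% downward at passage 4 against passage 1. In regenerated cells against passage 1 these shares were 2.98% and 2.51%, and for passage 4 against regenerated cells 8.14% and 4.35%. Of 23 listed genes of origin licensing and helicase assembly 10 were tested. Against passage 1, 1 of them rose at passage 4, namely CDC45, which joins the MCM ring in the active helicase (0.96, SE 0.23, limma adjusted p = 0.0364). It read 380, 389 and 532 in passage 1 and 729, 953 and 883 at passage 4, with no overlap. Against regenerated cells CDC45 (1.20, adjusted p = 0.00791) and GINS4, of another helicase partner (1.00, adjusted p = 0.0433), were higher. The list medians were 0.25, -0.26 and 0.62 for passage 4 and regenerated cells against passage 1 and passage 4 against regenerated cells. The call of CDC45 against passage 1 was lost without passage 1 array 1 or 2, any passage 4 array or regenerated array 3 (adjusted p up to 0.133), and that of GINS4 without passage 1 array 2, any passage 4 array or regenerated array 2 or 3.

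The list of replication fork and chromatin assembly genes was the longest, with 28 of 43 tested. None passed at passage 4 against passage 1, although 24 of 28 were above 0, with a median of 0.44. In that comparison 1 gene passed without passage 1 array 3. Against regenerated cells 11 of 28 were higher at passage 4 and 0 lower, with a median of 0.66, where 8.14% of tested probe sets passed upward. That count was 2 without regenerated array 3, 3 without passage 4 array 3, 5 without passage 4 array 1 or 2 or regenerated array 2, 10 to 13 without any other single array, and 0 with the spike-in kind as a block. These included ASF1B (1.58, SE 0.30, limma adjusted p = 0.00794) and CHAF1A (1.62, SE 0.37, adjusted p = 0.0155), which bring histones to new DNA. They also included RPA2 of the single-strand binding complex (0.77, adjusted p = 0.00907), RFC5 of the clamp loader for PCNA (1.17, adjusted p = 0.0109) and the topoisomerase gene TOP2A (0.91, adjusted p = 0.0123). ASF1B read 156, 239 and 283 in passage 1, 426, 380 and 428 at passage 4 and 202, 111 and 89.8 in regenerated cells. PRIM2, of the primase that starts each new strand, was the sole gene of this list that fell in regenerated cells against passage 1 (-1.17, SE 0.27, adjusted p = 0.0283), from 481, 730 and 450 to 294, 262 and 160. Its call was lost without passage 1 array 2 or regenerated array 2 or 3, that of RFC5 without regenerated array 3, that of TOP2A without passage 4 array 3 or regenerated array 3, and that of CHAF1A without passage 4 array 1 or 3 or regenerated array 2 or 3 (adjusted p up to 0.108).

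Of 19 listed genes of deoxynucleotide synthesis and salvage other than the members 12 were tested. SHMT1, which supplies folate carriers for thymidylate synthesis, was the sole one that rose at passage 4 against passage 1 (1.11, SE 0.26, limma adjusted p = 0.0345). It went from 71.9, 82.3 and 83.8 to 249, 192 and 142. MTHFD1, another enzyme of folate metabolism, was higher at passage 4 than in regenerated cells (0.82, adjusted p = 0.0135). None passed between regenerated cells and passage 1, and the list medians were 0.21, -0.0047 and 0.34 in the same order of comparisons as above. The call of SHMT1 was lost without passage 1 array 2 or 3 or passage 4 array 1 or 2, and that of MTHFD1 without passage 4 array 1 or regenerated array 2 or 3 (adjusted p up to 0.133).

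Of the purine and pyrimidine ribonucleotide genes 13 of 23 were tested, and 0 passed at passage 4 against passage 1. In regenerated cells IMPDH2, the rate-limiting enzyme of guanine nucleotide synthesis, fell against passage 1 (-0.995, SE 0.21, limma adjusted p = 0.0193), and so did PAICS of the purine pathway (-1.09, SE 0.28, adjusted p = 0.046). IMPDH2 read 3500, 2893 and 3889 in passage 1 and 2022, 1423 and 1704 in regenerated cells. Against regenerated cells ATIC (1.39, adjusted p = 0.00811), PAICS (1.43, adjusted p = 0.00828), IMPDH2 (1.00, adjusted p = 0.0103) and ADSL (0.84, adjusted p = 0.0238), all of purine synthesis, were higher at passage 4. The list medians were 0.14, -0.37 and 0.51. The fall of IMPDH2 was lost without passage 1 array 3 or regenerated array 2 or 3, and that of PAICS without any single array but passage 1 array 2 or regenerated array 1 (adjusted p up to 0.163). The call of ADSL was lost without passage 4 array 1 or 3 or regenerated array 2 or 3.

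Genes that control entry into S phase moved in both directions, with 12 of 33 tested. CCNA2, for cyclin A2, which drives S phase, rose at passage 4 against passage 1 (1.52, SE 0.28, limma adjusted p = 0.0126), from 118, 69.3 and 76.3 to 274, 240 and 321, and was higher than in regenerated cells (2.05, adjusted p = 0.00192). Against regenerated cells CDKN2C (2.47, adjusted p = 0.0118) and CDK2 (0.92, adjusted p = 0.0369) were also higher at passage 4. The cell cycle inhibitors CDKN1B, for p27 (-1.44, adjusted p = 0.00791), and CDKN1A, for p21 (-0.64, adjusted p = 0.0442), were lower. CDKN2C itself encodes an inhibitor, of CDK4 and CDK6. MYC, a driver of growth, fell in regenerated cells against passage 1 (-1.14, adjusted p = 0.0347). The calls of CDK2, CDKN1A and MYC were lost without any passage 4 array and without regenerated array 2 or 3, those of CDKN1A and MYC also without passage 1 array 3, that of CDKN2C without passage 4 array 3 or regenerated array 2, and that of CCNA2 against passage 1 without passage 1 array 2 or passage 4 array 3 (adjusted p up to 0.154).

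Mitosis genes, counted beside the replication genes, gave 9 of 20 tested that rose at passage 4 against passage 1. In regenerated cells against passage 1 they gave 0 of 20 past the threshold, and 14 of 20 were higher at passage 4 than in regenerated cells. Of all tested probe sets 2.71% passed upward in the first of these comparisons, 2.98% upward and 2.51% downward in the second and 8.14% upward in the third. The medians of the mitosis list were 0.92, -0.21 and 1.14. The smallest adjusted p against passage 1 were those of CENPF (1.91), BIRC5 (1.45), PTTG1 (1.17), CCNB2 (1.19) and NUSAP1 (0.92), at 0.0069 to 0.0256 in limma. Against regenerated cells they were those of CCNB2 (1.40), AURKB (1.45), NUSAP1 (1.09) and PTTG1 (1.15), at 0.00516 to 0.00647. Against passage 1, PTTG1 lost its call without passage 4 array 3, and CCNB2 and NUSAP1 without passage 1 array 2 or any passage 4 array. NUSAP1 lost it also without passage 1 array 3. The count of 9 became 2 without passage 4 array 3, 3 without passage 4 array 1 or 2, 4 without passage 1 array 2, 5 without passage 1 array 3 and 8 to 10 without any other single array, and within the spike-in kind it was 2. The count of 14 ran from 9, without passage 4 array 3, to 16 with 1 array left out, and was 0 within the spike-in kind. Of the genes named from the lists before mitosis, none kept its call in a passage 4 comparison within the spike-in kind. PRIM2 (-1.25), IMPDH2 (-0.98) and MYC (-1.38) kept theirs for regenerated cells against passage 1 arrays 2 and 3 (limma adjusted p from 0.0149 to 0.0407). The 2 mitosis genes counted within the kind were AURKB, at 1.51, and UBE2C, at 1.09, against passage 1 array 1 alone. The lists were chosen with results of these arrays known, so their counts are not independent evidence of a direction.

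**Figure D5:**
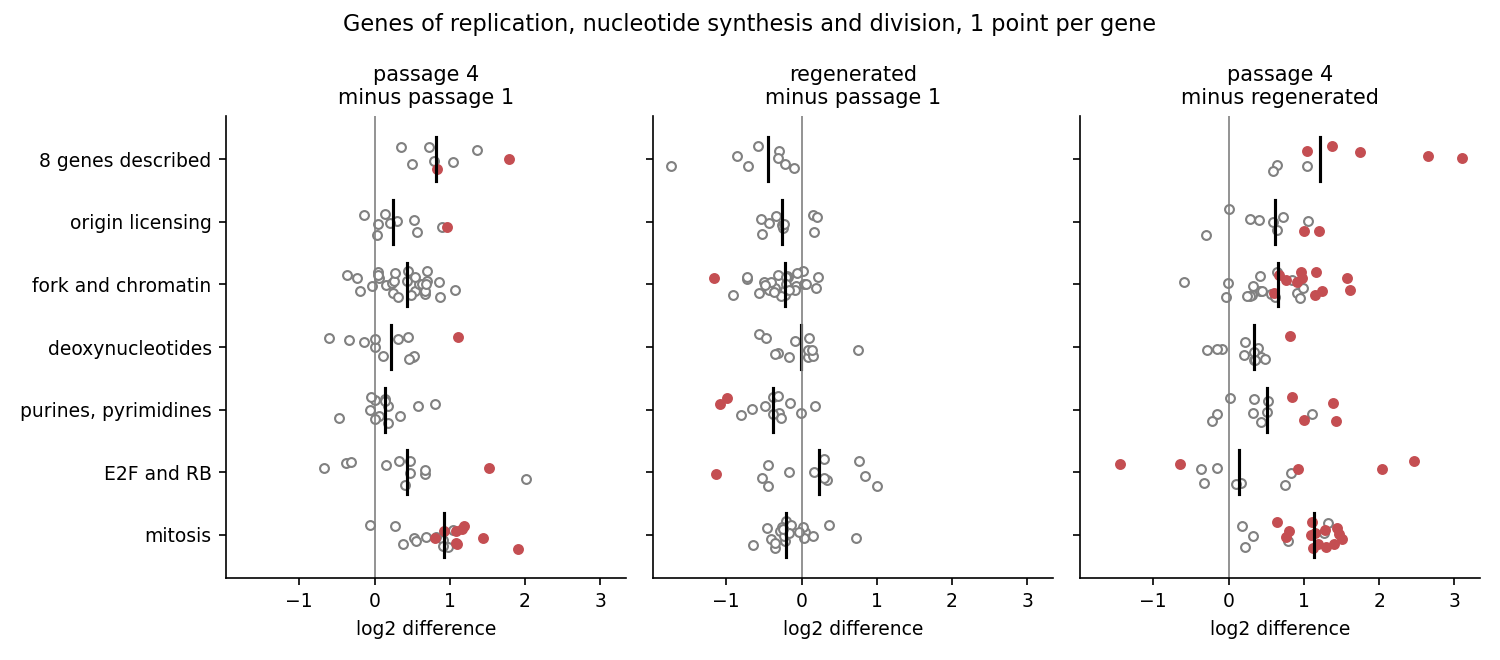
Log2 differences in the 3 comparisons for the 8 genes and the genes of 6 lists, 1 point per gene by its brightest tested probe set, with filled points past an adjusted p of 0.05 in limma and bars at list medians (vertical scatter carries no meaning). The points of the 8 genes and of mitosis lie to the right of 0 against regenerated cells, with medians of 1.21 and 1.14, and the middle panel has filled points to the left for PRIM2, IMPDH2, PAICS and MYC.

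Single arrays were also compared over the list of fork and chromatin genes. In passage 1 array 1, 19 of the 28 fork and chromatin genes lay below the mean of the other 2 passage 1 arrays, with a median of -0.22, against 46.4% of tested probe sets and a median of 0.05. In passage 1 array 3, 21 of 28 lay above the mean of the other 2, with a median of 0.39, against 53.5%. In regenerated array 1, 22 of 28 lay above, with a median of 0.43, against 56.4%. The mitosis list moved the same way. There 13 of 20 lay below in passage 1 array 1 (median -0.23), 14 above in passage 1 array 3 (median 0.15) and 17 above in regenerated array 1 (median 0.56). For origin licensing these were 6 of 10 below (median -0.10), 9 above (median 0.44) and 9 above (median 0.31). Genes of S phase entry did not show such shifts, with 6 of 12 below in passage 1 array 1 (median 0.0085) and 6 of 12 above in regenerated array 1 (median 0.06). In passage 1 array 3, 7 of the 12 S phase entry genes lay above (median 0.09). Of the deoxynucleotide genes 7 of 12 lay below in passage 1 array 1, 7 above in passage 1 array 3 and 7 above in regenerated array 1. Of the purine and pyrimidine genes 11 of 13 lay above in passage 1 array 3 (median 0.29). In that list 7 of 13 lay below in passage 1 array 1 and 8 above in regenerated array 1.

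Markers of other cell types were summed to see what moved with the groups. Leukocyte markers, 9 of 12 with a probe set, summed to 423 to 1005 in passage 1, 248 to 377 at passage 4 and 240 to 356 in regenerated arrays, and 7 of the 9, PTPRC among them, lay below the filter. CD74 read 162, 177 and 692 in passage 1 and 25.5 to 58.4 in the other 6 arrays, and without it the sums overlapped, at 260 to 329, 198 to 352 and 184 to 298. Fibroblast markers, 6 of 8, summed to 298 to 363, 498 to 679 and 388 to 1329. Smooth muscle markers, 6 of 8, summed to 8685 to 24354, 7122 to 22236 and 20242 to 30623, with DES and MYOCD below the filter. ACTA2 and TAGLN had the largest signals, and ACTA2 ran from 196 to 13189 within passage 1. SMTN read 510 to 698 in passage 1 and 976 to 1253 in regenerated cells. CNN1 read 15.4 to 92.1 at passage 4 and 343 to 419 in regenerated cells. All 4 tested genes were lower at passage 4 than in regenerated cells, with a median of -1.45. Passage 1 was below both other groups for the fibroblast sum. Of its genes LUM alone had passage 1 below all other arrays, at 5.80 to 17.9 against 96.7 to 160 at passage 4 and 660, 30.1 and 1014 in regenerated cells. PDGFRB, DCN, DPT, COL1A2 and COL3A1 overlapped between passage 1 and both other groups, with DPT and COL3A1 below the filter. The part of these markers in the results was not tested.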

How the data were processed

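The authors deposited 1 table of probe set intensities, made with MAS5 per the submitters' processing notes. MAS5 combines a set's probes into 1 signal and usually scales each array. Version and scaling target are not given in the sources, and detection calls were not used. No further normalization was applied, since trimmed means were already equal. Of 24123 probe sets 124 controls were left out. The deposited intensities were turned into log2(signal + 16) and fitted over 9 arrays with limma 3.58.1 in R 4.3.3 (lmFit, eBayes with an intensity trend, 6 residual and 5.65 prior degrees of freedom), with two-sided tests and Benjamini-Hochberg adjustment over 15299 probe sets per comparison. The script was tested on simulated data.

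In the platform annotation 10099 probe sets had 1 symbol, 198 had several and 13826 had none. A RefSeq table of Sscrofa11.1 held the Entrez identifiers of 9989 and changed 0 symbols. The files name no genome build and no sequences were at hand, so none are printed. The genes described and the 6 lists were chosen with earlier results of these data known. By rule, each probe set of the genes described is given, and from each list up to 5 genes past the threshold per comparison, smallest adjusted p first. A gene's brightest probe set is that with the highest mean log2 value. Replicate numbers did not pair the arrays: same-numbered arrays of 2 groups had correlations of their deviations from -0.138 to 0.186. Alternatives were another pseudocount, filter, normalization, variance prior, block or set of arrays, and the mean over all probe sets of a gene.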

Additional observations from a re-analysis of the deposited data

Results flagged for a closer look

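For 7 member probe sets the change at passage 4 differed from the change in regenerated cells, both against the shared passage 1 arrays. The difference itself was tested by passage 4 against regenerated cells, since the control cancels, with limma and adjustment over all tested probe sets. It was 2.65 on the log2 scale for the bright probe set of TYMS and 1.76 for the dimmer one, 1.04 for RRM1 and 1.81 for the MCM2 probe set Ssc.21350.1.S1_at. It was 1.38 for MCM3, 3.10 for MCM4 and 1.75 for MCM5. All 7 kept their sign with the spike-in kind as a block, and none passed there (adjusted p from 0.0989 to 0.401).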

How the results depend on the processing

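Each result was recomputed under up to 19 other fits, and the medians also from the mean over all probe sets of a gene. The count of probe sets past the threshold at passage 4 against passage 1, 733, became 356 with a stricter filter, 150 with the spike-in kind as a block, and 244 to 1403 with 1 array left out. The member count of 4 became 1 with the stricter filter, 2 with no intensity trend, 0 with the kind as a block and 1 to 4 with 1 array left out, and the median of the 8 genes went from 0.81 to 1.28 with the kind as a block. For regenerated against passage 1 the count of 840 became 479 when the fit held only the 2 groups compared and 291 to 1238 with 1 array left out, and the member count of 0 stayed between 0 and 1. For passage 4 against regenerated cells the count of 1912 became 958 with the stricter filter, 35 with the kind as a block and 895 to 2406 with 1 array left out. Its member count of 7 became 4 with the stricter filter. Under that filter 7 member probe sets in place of 12 were tested in each comparison. The member counts against passage 1 and against regenerated cells fell there in part through probe sets left untested. For passage 4 against regenerated cells the member count was 5 to 9 with 1 array left out, and 9 when the fit held only the 2 groups compared. With the kind as a block it was 0, and the median of the 8 genes went from 1.21 to 2.07.

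With a replicate block the counts were 549, 554 and 1626, with 3, 0 and 7 members. It lost the call of RRM1 against passage 1 (adjusted p = 0.0667) and no other member call.

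The MCM2 probe set Ssc.1408.1.A1_at, at 0.06 for passage 4 against passage 1, was -0.059 with quantile normalization, -0.095 with median centring and -0.26 to 0.43 with 1 array left out, and for passage 4 against regenerated cells -0.10 to 0.54. For regenerated against passage 1 the ranges with 1 array left out were -0.56 to 0.29 for MCM2 Ssc.1408.2.S1_at, -0.30 to 0.14 for Ssc.21350.1.S1_at, -0.47 to 0.22 for Ssc.1408.1.A1_at and -0.041 to 0.47 for MCM5 Ssc.11264.1.A1_at. Against passage 1 the call of the bright TYMS probe set was lost in 12 of 19 fits and that of RRM1 in 11 of 19. MCM4 against regenerated cells ran from 2.16 with a pseudocount of 64 to 4.08 with 1. Dim signals limit MCM4, the MCM2 probe sets other than the brightest and the 2 untested probe sets.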
